A study of Mus musculus with 16 samples.

Results

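The genes described here are 9 identity genes of GABAergic interneurons, taken by symbol from the 48397 symbols that each of the 16 count files lists. They are *Gad1*, *Gad2* and *Slc32a1*, which make GABA and load it into vesicles, *Pvalb*, *Calb1* and *Calb2*, which encode the calcium-binding proteins parvalbumin, calbindin and calretinin, and *Dlx1*, *Dlx5* and *Lhx6*, which encode homeodomain transcription factors. All 9 were found in every file, and all 9 were among the 17038 genes with enough counts to be tested.

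Interneurons are the inhibitory neurons of the hippocampus. They convert glutamate to GABA with glutamate decarboxylase, which exists as GAD67, the product of *Gad1*, and GAD65, the product of *Gad2*, and they fill synaptic vesicles with GABA through the transporter VGAT, the product of *Slc32a1*. The Dlx factors act early in the ganglionic eminences of the embryo, where interneurons are born, and *Lhx6* directs the lineage that gives parvalbumin and somatostatin cells. The calcium-binding proteins label subclasses in the adult. *Calb1* is also strong in granule cells of the dentate gyrus and in pyramidal cells, and *Calb2* in mossy cells and Cajal-Retzius cells, so neither marks interneurons alone in this tissue.

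The libraries were made from primary hippocampal neurons of wild type CD1 mouse pups of postnatal days 0 to 2, with 4 libraries in each of 4 groups. Each culture received, at 10 and again at 13 days in vitro (DIV), 10-fold concentrated medium in which immortalized astrocytes had grown, and RNA was taken at 17 DIV. The medium came from astrocytes of mice whose *Apoe* gene is replaced by human *APOE* ε2, ε3 or ε4 (the apoE2, apoE3 and apoE4 groups) or from *Apoe*-/- astrocytes (the control group). All groups therefore received astrocyte medium, and all received the antimitotic AraC at 3 DIV against dividing cells. The neurons keep their own mouse *Apoe*, and each apoE isoform came from an immortalized line, so that isoform and line cannot be told apart. The question the comparisons address is how neuronal transcripts differ between the control and each isoform, and between isoforms.

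Depth ranged from 14087723 to 34248172 reads on genes per library, with a median of 22221832. Between 38.4 and 73.7% of a library's counted reads lay on no single gene, and 0.359 to 15% of the reads on genes came from *Lars2*, a gene that overlaps a ribosomal repeat. The libraries apoE2 replicate 4 and apoE4 replicate 2 stood apart as the 2 deepest, with 38.4 and 38.6% of reads on no single gene, against 51.4 to 73.7% in the others, and 0.69 and 0.359% of reads from *Lars2*, against 2.83% or more. The replicate numbers in the labels marked libraries that deviated together, less clearly so in number 1, and a pair below means libraries of 2 groups with the same number. This pairing was read from the data and is not stated in the labels. Markers of other cells followed these numbers. The 9 astrocyte markers summed to 1316 to 1707 CPM (counts scaled to a common library size by edgeR's TMM method) in the libraries numbered 2 and to 3016 to 6631 in those numbered 4. The 18 glutamatergic neuron markers summed to 3182 to 3344 CPM in number 2 and to 1499 to 2257 in number 4.

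The members lie on 5 chromosomes of the genome build GRCm38 (mm10), by the GENCODE M21 annotation. Chromosome 2 holds *Gad1* (chr2:70553072-70602014, plus strand), *Gad2* (chr2:22622205-22693874, plus), *Slc32a1* (chr2:158610767-158615748, plus), *Dlx1* (chr2:71528113-71533981, plus) and *Lhx6* (chr2:36081953-36105408, minus). *Pvalb* lies at chr15:78191114-78206400 (minus), *Calb1* at chr4:15881264-15908064 (plus), *Calb2* at chr8:110137502-110168210 (minus) and *Dlx5* at chr6:6877805-6882085 (minus). *Slc32a1* shares 24.92% of its exon bases with *Gm14205* on the other strand, *Dlx1* 6.21% with *Dlx1as* on the other strand and *Lhx6* 2.16% with *Gm27953* on the same strand. The sources used here do not give the strand setting of the counting, so the counts of these 3 genes are uncertain to that extent. The partner *Gm14205* had 1 read in the 16 libraries together and *Dlx1as* a mean of 1.35 CPM.

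Promoter windows of 300 bases, from 250 before to 50 after a RefSeq transcription start on GRCm38.p6, were at hand for 6 of the 9 genes, in 9 windows. Shown here are those of *Gad1* and *Dlx1*, whose levels followed each other most closely among the libraries, and that of *Gad2*, the sister enzyme of *Gad1*. Capitals mark the core that homeodomain proteins such as DLX and LHX6 bind in general, TAAT, on either strand (ATTA is its reverse complement). The windows lie at chr2:70561879-70562178 for *Gad1*, chr2:71529195-71529494 for *Dlx1* and chr2:22622077-22622376 for *Gad2*, all on the plus strand.
Gad1: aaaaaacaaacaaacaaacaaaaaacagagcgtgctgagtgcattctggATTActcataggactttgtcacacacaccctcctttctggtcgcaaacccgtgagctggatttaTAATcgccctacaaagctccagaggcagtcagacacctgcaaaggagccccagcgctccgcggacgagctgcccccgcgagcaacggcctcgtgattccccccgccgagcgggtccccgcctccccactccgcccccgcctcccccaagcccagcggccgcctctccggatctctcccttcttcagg
Dlx1: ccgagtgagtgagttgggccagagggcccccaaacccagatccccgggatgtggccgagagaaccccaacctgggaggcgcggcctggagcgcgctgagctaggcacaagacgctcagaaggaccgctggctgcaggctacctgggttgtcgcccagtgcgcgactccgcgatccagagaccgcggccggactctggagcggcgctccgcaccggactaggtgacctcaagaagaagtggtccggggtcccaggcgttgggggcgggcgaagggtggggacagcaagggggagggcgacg
Gad2: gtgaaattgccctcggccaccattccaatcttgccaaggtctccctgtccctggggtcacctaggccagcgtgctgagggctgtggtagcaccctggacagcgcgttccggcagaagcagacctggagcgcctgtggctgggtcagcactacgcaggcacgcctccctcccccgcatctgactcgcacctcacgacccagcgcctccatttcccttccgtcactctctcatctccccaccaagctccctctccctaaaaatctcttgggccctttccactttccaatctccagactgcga
The *Gad1* window held the core 2 times, and the *Dlx1* and *Gad2* windows held 0 matches. Of all 32851 promoter windows in the table, 58.03% held at least 1 match on either strand, so a match is common, and the letters are a description of the window and not a binding site. The 3 windows are rich in G and C, at 60.0% for *Gad1*, 69.3% for *Dlx1* and 61.3% for *Gad2*, against a median of 52.7% over all windows. The genes *Calb1*, *Calb2* and *Dlx5* are named only.

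All 9 genes were transcribed in all 16 libraries, with 8 to 10952 counts per library and 0 of 144 values at 0. Between genes, levels are compared as CPM per kilobase of merged exons. In the 4 control libraries the order was *Calb2* with 106 ± 65.2 (SD, n = 4), *Gad1* with 33.9 ± 7.25, *Calb1* with 27.8 ± 7.87, *Pvalb* with 23.5 ± 20.3, *Gad2* with 18.7 ± 3.14, *Slc32a1* with 7.99 ± 2.36, *Dlx1* with 4.26 ± 0.83, *Lhx6* with 2.88 ± 1.35 and *Dlx5* with 0.48 ± 0.22. Neighbours in this order overlapped between libraries in 6 of 8 steps. The steps with no overlap were from *Gad2* (lowest control library 15.5) to *Slc32a1* (highest 10.2) and from *Lhx6* (lowest 0.97) to *Dlx5* (highest 0.69). The length used moves these levels, and per kilobase of the longest transcript *Gad1* had 71.9 and *Dlx5* 0.76, with the order of the 9 unchanged. Excitatory transcripts were more abundant. On the same per-kilobase scale, *Slc17a7*, the vesicular glutamate transporter of pyramidal and granule cells, reached 161 ± 50.2 in the control libraries, and it exceeded *Slc32a1* 9.41-fold to 40.5-fold there, or 16.5-fold to 70.9-fold with the lengths of the longest transcripts. *Gfap*, a marker of astrocytes, stood at 154 ± 110 CPM per kilobase in the control libraries, so the cultures were not neurons alone. In RNA of whole cultures, fewer cells of a type and less RNA per cell cannot be told apart.

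**Figure D1:**
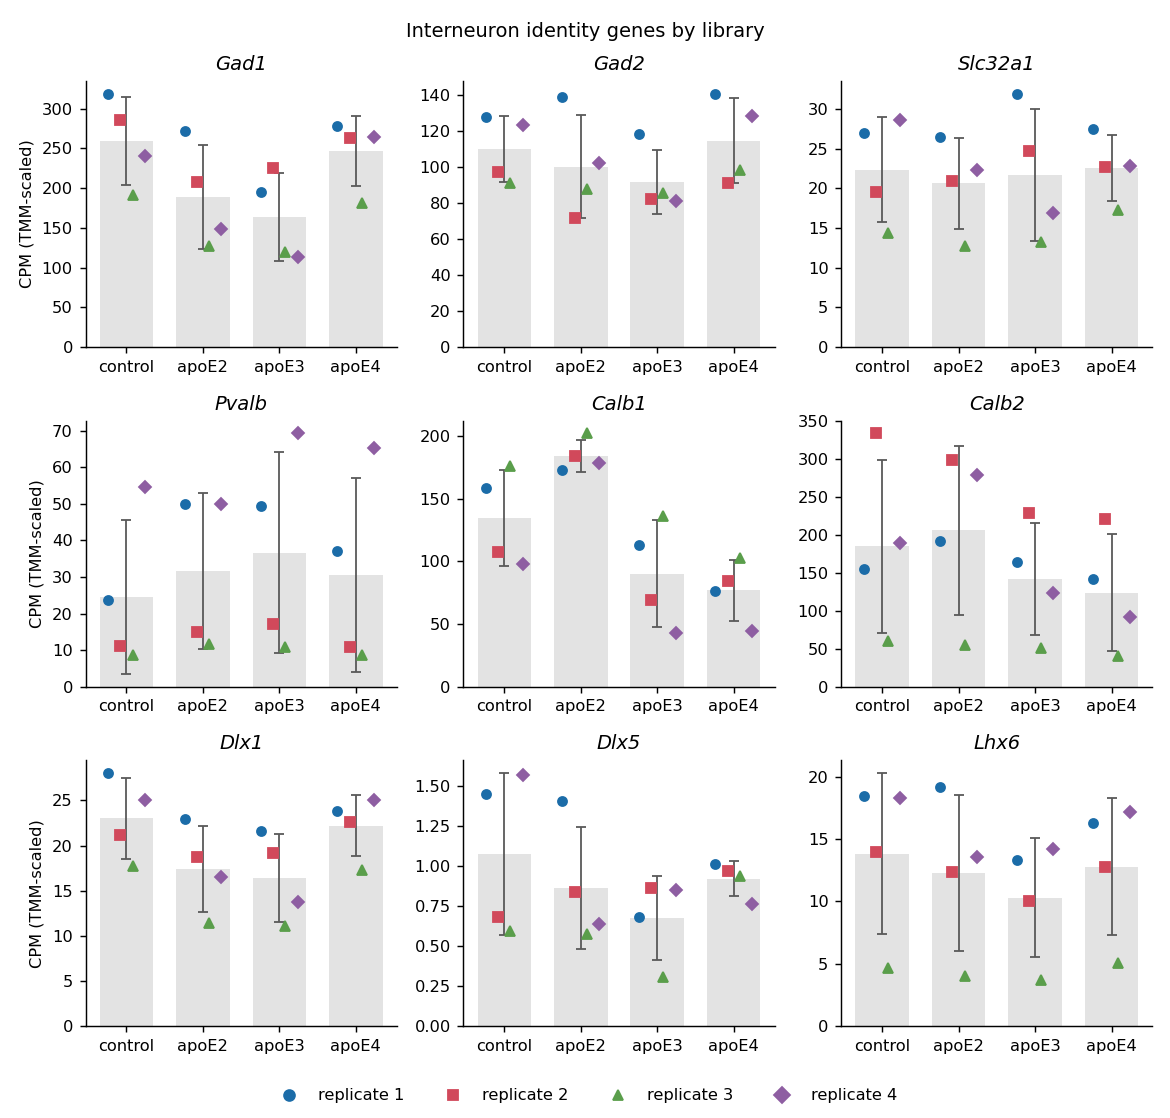
CPM (scaled by edgeR's TMM method) of the 9 genes in each library, by group, with symbols for the replicate number, grey bars for the group mean and whiskers for the SD (n = 4). The *Calb1* libraries of apoE2 lie above every apoE3 and apoE4 library, while *Pvalb*, *Calb2* and *Lhx6* separate by replicate number within each group.

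Before the groups are compared, the replicate numbers need a description. In a test of the replicate number with the group in the model, 8 of the 9 genes differed between numbers at an edgeR adjusted p under 0.05, where 63.7% of all tested genes did. The exception was *Dlx5* (adjusted p = 0.134), which had 8 to 34 counts per library. *Lhx6* had 94.8% of its sum of squares (log2 CPM) between numbers and 3.75% between groups, *Pvalb* 93.0% and 4.15%, and *Calb2* 85.9% and 9.03%. *Calb1* had 27.5% between numbers and 59.6% between groups, *Gad1* 48.2% and 40.4%, and *Dlx1* 52.9% and 35.0%. The medians over all tested genes were 56.1% and 14.4%.

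*Pvalb*, the marker of fast-spiking basket cells, was low in numbers 2 and 3 and high in number 4. Its CPM was 23.8, 50.0, 49.3 and 37.0 in the libraries numbered 1 (control, apoE2, apoE3, apoE4), 11.1, 15, 17.2 and 10.9 in number 2, 8.52, 11.5, 10.8 and 8.75 in number 3 and 54.6, 50.0, 69.3 and 65.2 in number 4. The mean of number 4 was 6.04-fold that of number 3, whereas the highest and lowest group means differed 1.5-fold. *Lhx6*, which works upstream of parvalbumin cells, was lowest in number 3 in every group, at 3.70 to 5.04 CPM, and stood at 10.0 to 19.2 CPM in the other numbers, with no overlap. *Calb2* ran from 40.3 to 60.5 CPM in number 3 and from 221 to 334 CPM in number 2, a 5.25-fold difference of means. *Slc32a1* (1.96-fold), *Gad1* (1.72-fold), *Dlx1* (1.67-fold) and *Gad2* (1.54-fold) differed less between their highest and lowest numbers.

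**Figure D2:**
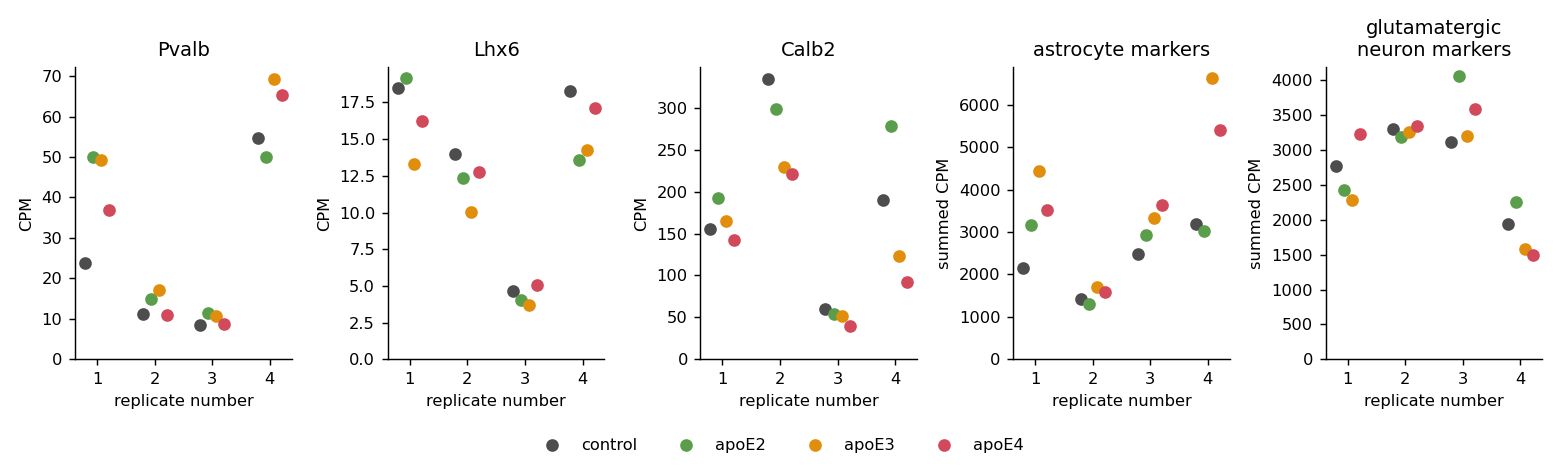
CPM of *Pvalb*, *Lhx6* and *Calb2* and summed CPM of 9 astrocyte and 18 glutamatergic neuron markers, by replicate number, with 1 point per library colored by group. Number 3 holds the lowest *Lhx6* and *Calb2* libraries, and number 4 the lowest glutamatergic sums and, with apoE3 and apoE4, the highest astrocyte sums.

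**Figure D3:**
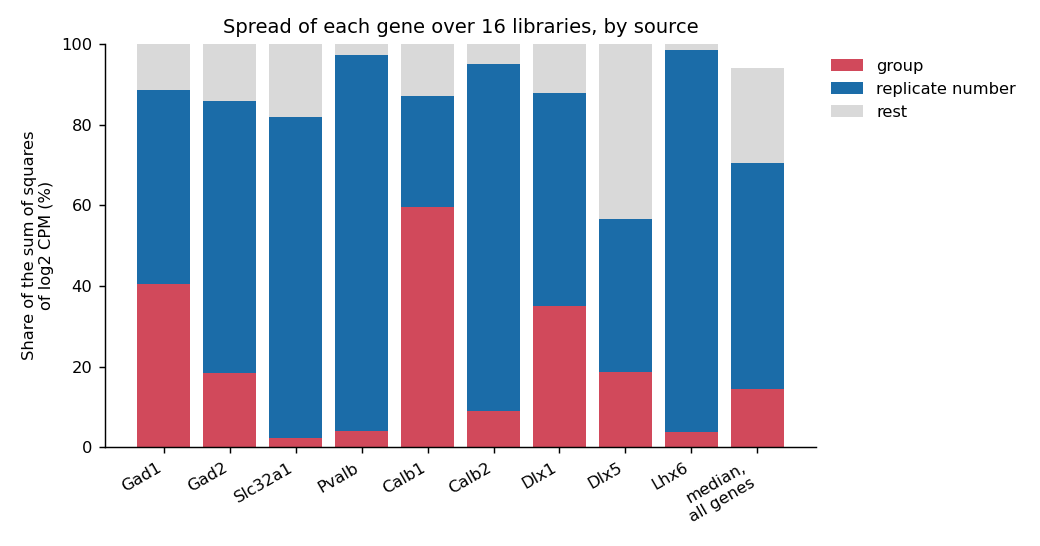
Share of each gene's sum of squares of log2 CPM over 16 libraries that lay between groups, between replicate numbers and in the rest, with the medians over all 17038 genes tested at the right (medians need not add to 100). *Calb1* has the largest share between groups of the 9 genes, at 59.6%, and *Lhx6* the largest between replicate numbers, at 94.8%.

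The comparisons rest on all 16 libraries and the quasi-likelihood test of edgeR, in an unpaired form, with the groups alone, and in a paired form, with the replicate number as a block. An adjusted p is adjusted by Benjamini-Hochberg over the 17038 genes, and a call is an adjusted p under 0.05. In the unpaired fit, 0 of the 9 genes were called in any comparison, where 0% of all genes were called for apoE2 against control, 0.00587% for apoE3 against control, 0.194% for apoE4 against control, 0.153% for apoE4 against apoE3, 0.252% for apoE4 against apoE2 and 0% for apoE3 against apoE2. At an unadjusted p under 0.05 the unpaired counts were 0 of 9 for apoE2 against control (2.78% of all genes) and 1 of 9 in each of the other 5 comparisons, where 6.34% (apoE3 against control), 3.33% (apoE4 against control), 4.67% (apoE4 against apoE3), 5.27% (apoE4 against apoE2) and 2.28% (apoE3 against apoE2) of all genes passed. In the unpaired test of any difference among the 4 groups the count was 0 of 9 (0.241% of all genes), with 1 at an unadjusted p under 0.05 (4.8% of all genes). DESeq2 without pairing called 1 gene in 1 of the 6 comparisons, *Calb1* in apoE4 against apoE2, where it called 0.957% of all genes (those to which it gave an adjusted p). In the other comparisons it called 0 of 9, and of all genes 0.17%, 0.352% and 0.534% for apoE2, apoE3 and apoE4 against the control, 0.405% for apoE4 against apoE3 and 0.0529% for apoE3 against apoE2. Its test of any difference among the 4 groups called 0 of 9 (1.34% of all genes).

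The study's own criterion was at least a 2-fold difference and an unadjusted p below 0.05 between an isoform and the control. Its p came from a test other than that of edgeR, and counts by that test are not given here. Here the same thresholds were put on the p of edgeR and on every comparison, also those between isoforms. In the unpaired fit, *Calb1* alone of the 9 met this criterion. *Calb1* met it in apoE4 against apoE2 (1.28% of all genes) and in apoE3 against apoE2 (0.675%). The latter was lost without apoE2 replicate 3, apoE3 replicate 2 or apoE3 replicate 4, each of which left 0 of 9, and the former held with each library left out. None of the 9 met it in apoE2 against control (0.716%), apoE3 against control (1.95%), apoE4 against control (1.14%) or apoE4 against apoE3 (1.23%).

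In the paired fit, 4 of the 9 genes differed among the 4 groups (10.8% of all genes), namely *Gad1* (adjusted p = 0.00589), *Calb1* (0.00108), *Calb2* (0.03) and *Dlx1* (0.016). By comparison, the paired fit called 0 of 9 for apoE2 against control (1.72% of all genes), 5 of 9 for apoE3 against control (11.8%), 1 of 9 for apoE4 against control (3.34%), 1 of 9 for apoE4 against apoE3 (1.8%), 2 of 9 for apoE4 against apoE2 (4.45%) and 1 of 9 for apoE3 against apoE2 (1.37%). DESeq2 with the replicate block called more of all genes, with 2 of 9 for apoE2 (4.61% of all genes), 6 for apoE3 (15.8%) and 2 for apoE4 (6.12%) against the control, 3 for apoE4 against apoE3 (4.67%), 4 for apoE4 against apoE2 (8.07%), 1 for apoE3 against apoE2 (4.72%) and 7 for any difference among the 4 groups (19.3%). Without both libraries that stood apart, the 10 calls of the paired edgeR fit held, and *Pvalb* with apoE2 (adjusted p = 0.0128) and *Calb2* with apoE3 (0.0429) and apoE4 (0.008) were called against the control as well. The counts were then 1, 6 and 2 of 9 for apoE2, apoE3 and apoE4 against the control (5.13, 15.7 and 5.5% of all genes), 1 for apoE4 against apoE3 (2.92%), 2 for apoE4 against apoE2 (3.65%), 1 for apoE3 against apoE2 (0.43%) and 6 for any of the 4 groups (14.1%). The verbs rose and fell below refer to calls of the paired fit. The comparisons with the control share the control libraries, and those between isoforms share libraries with them.

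**Figure D4:**
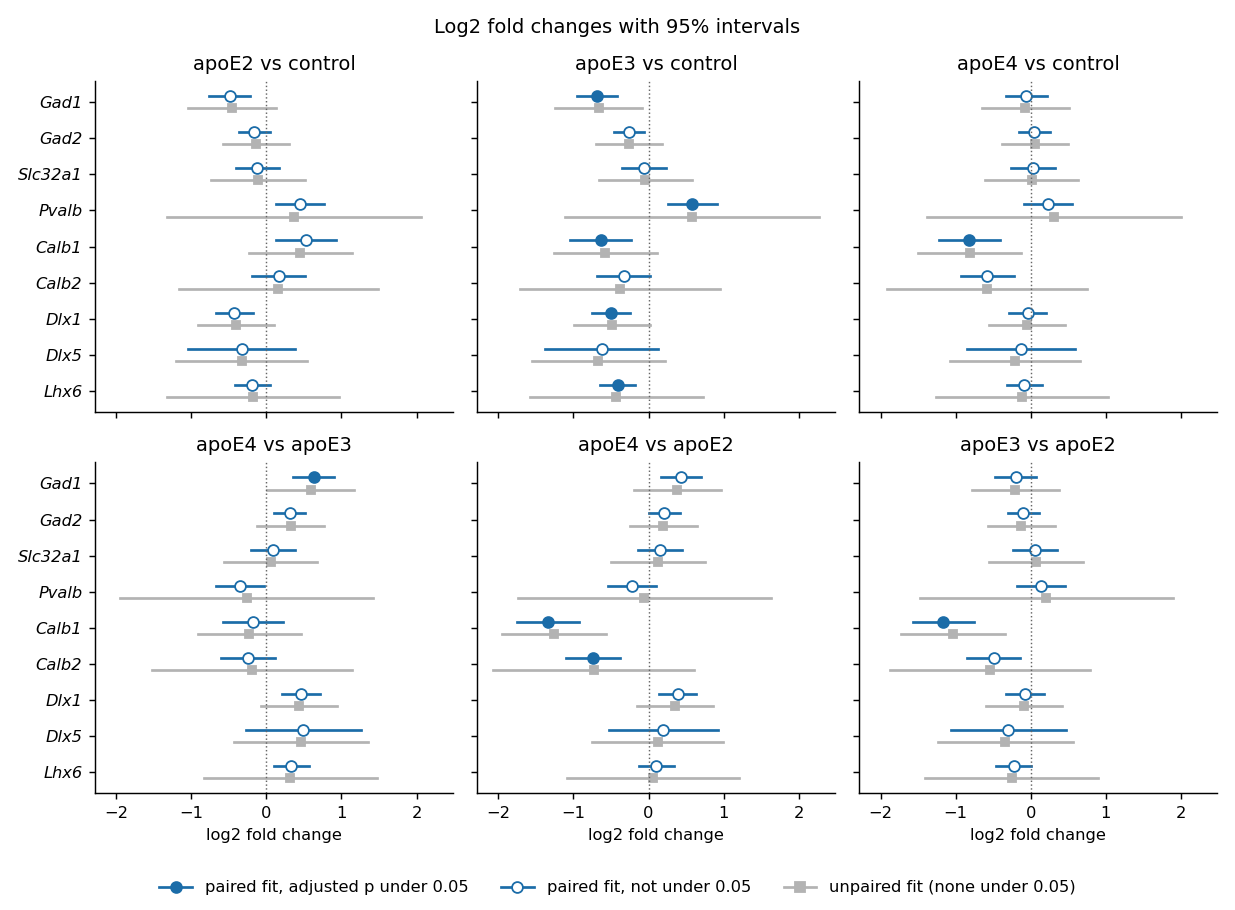
Log2 fold changes of the 9 genes in 6 comparisons, with 95% intervals, from the paired edgeR fit (circles, filled at an adjusted p under 0.05) and the unpaired fit (grey squares). Point estimates of the fits lie close together, the paired intervals are narrower, and 10 circles are filled, 5 of them in apoE3 against control.

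*Gad1* was lowest with apoE3. Its CPM was 319, 285, 191 and 240 in the control libraries 1 to 4, 272, 207, 127 and 149 with apoE2, 195, 225, 120 and 113 with apoE3, and 278, 262, 181 and 264 with apoE4. The ranges of the groups overlapped, but in every pair apoE3 was below the control, at 0.613, 0.788, 0.626 and 0.472 of it. *Gad1* fell by 0.69 on the log2 scale with apoE3 (95% interval -0.96 to -0.42, paired adjusted p = 0.0038, unpaired 0.77), and the call held in 16 of 16 paired fits that left out 1 library and in the 4 that left out a whole replicate number. Against apoE3, *Gad1* rose with apoE4 by a log2 fold change of 0.63 (0.36 to 0.90, paired adjusted p = 0.0194, higher in 4 of 4 pairs). That call was lost without apoE3 replicate 1 (adjusted p = 0.0945), apoE3 replicate 3 (0.0669), apoE4 replicate 3 (0.0719) or apoE4 replicate 4 (0.0588), and without all libraries of number 1 (0.0981) or number 3 (0.206).

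With apoE2, *Gad1* had a paired log2 fold change of -0.49 against the control (-0.76 to -0.22, adjusted p = 0.0673, lower in 4 of 4 pairs), which edgeR did not call and DESeq2 with the replicate block did (adjusted p = 0.00973). In edgeR it passed the threshold in 4 of 16 fits with 1 library left out, without apoE2 replicate 1 (0.0477), apoE3 replicate 2 (0.0341), apoE3 replicate 4 (0.028) or apoE4 replicate 4 (0.0288), and without all libraries of number 4 (0.032). Between apoE4 and apoE2 its paired log2 fold change was 0.43 (adjusted p = 0.0703), and it passed without apoE2 replicate 1 (0.027), apoE3 replicate 2 (0.0383) or apoE3 replicate 4 (0.0313). DESeq2 with the replicate block called this difference too (adjusted p = 0.0226). ApoE4 and the control differed by -0.06 in *Gad1* (-0.33 to 0.21, adjusted p = 0.875).

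*Gad2* showed a smaller range and was not called by edgeR. Its CPM was 128, 97.0, 91.2 and 123 in the control libraries, 139, 71.5, 87.7 and 102 with apoE2, 118, 82.0, 85.5 and 80.8 with apoE3, and 141, 91.3, 98.4 and 128 with apoE4. ApoE3 was below the control in 4 of 4 pairs, with a paired log2 fold change of -0.26 (-0.46 to -0.06, adjusted p = 0.0907). ApoE4 was above apoE3 in 4 of 4 pairs, with 0.31 (0.11 to 0.52, adjusted p = 0.124). DESeq2 with the replicate block called both differences (adjusted p = 0.0492 and 0.0464). The 2 decarboxylase transcripts did not keep a fixed ratio. *Gad1* CPM divided by *Gad2* CPM was 2.49, 2.94, 2.10 and 1.95 in the control libraries, 1.96, 2.89, 1.44 and 1.46 with apoE2, 1.65, 2.74, 1.40 and 1.40 with apoE3, and 1.97, 2.87, 1.84 and 2.06 with apoE4. The ratio was below the control in 4 of 4 pairs with apoE2 and with apoE3, and apoE4 was above apoE3 in 4 of 4.

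*Slc32a1* was called in no comparison by either fit. Its group means were 22.3 ± 6.61 CPM in the control, 20.6 ± 5.76 with apoE2, 21.7 ± 8.30 with apoE3 and 22.5 ± 4.19 with apoE4 (SD, n = 4). Its largest paired log2 fold change against the control was -0.12 with apoE2 (-0.41 to 0.17, adjusted p = 0.801). Of its spread, 79.6% lay between replicate numbers and 2.37% between groups.

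**Figure D5:**
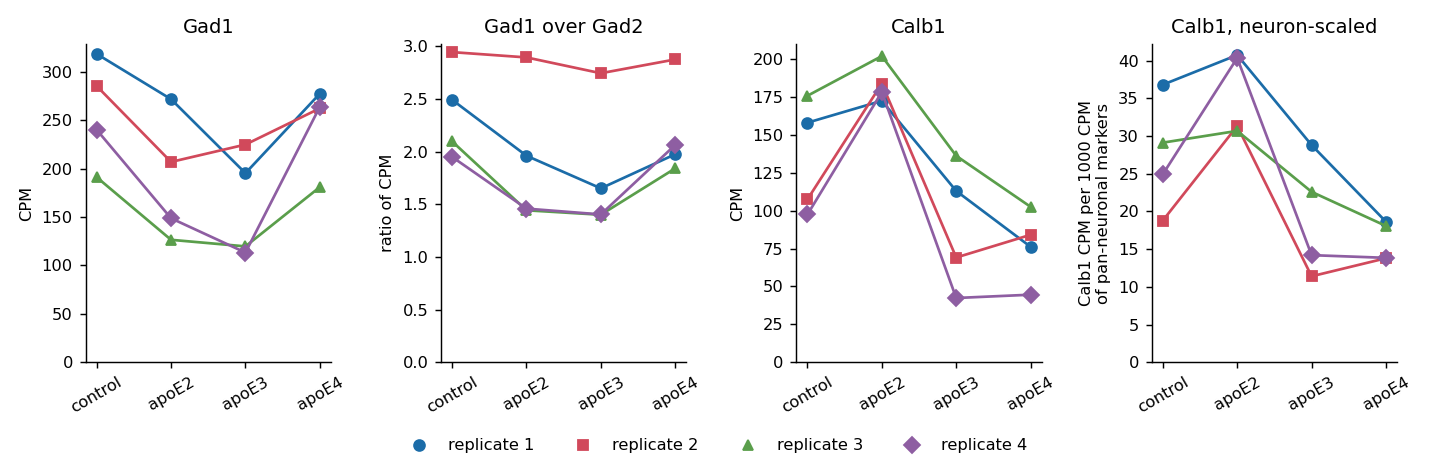
*Gad1* CPM, the ratio of *Gad1* to *Gad2*, *Calb1* CPM and *Calb1* per 1000 CPM of 8 pan-neuronal markers, with 1 line per replicate number across the groups (the lines join libraries with the same number). Each *Gad1* line is lower with apoE3 than in the control, and each *Calb1* line is highest with apoE2.

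*Calb1* differed most between groups. Its CPM was 158, 108, 176 and 97.5 in the control libraries, 173, 184, 202 and 178 with apoE2, 113, 69.1, 136 and 42.4 with apoE3, and 76.2, 84.1, 103 and 44.6 with apoE4. The apoE2 libraries lay above all apoE3 and all apoE4 libraries, and they had the smallest spread of the 4 groups (184 ± 12.8 CPM, SD, n = 4). *Calb1* was lower with apoE4 than with apoE2 by a log2 fold change of -1.34 (-1.75 to -0.93, paired adjusted p = 0.000999, unpaired 0.194), and DESeq2 without pairing called it as well (adjusted p = 0.036). It was lower with apoE3 than with apoE2 by -1.16 (-1.57 to -0.75, paired adjusted p = 0.01, unpaired 1). Both calls held in 16 of 16 paired fits that left out 1 library, and the second was lost without all libraries of number 2 (adjusted p = 0.0734) or of number 3 (0.0519).

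Against the control, *Calb1* fell by 0.82 on the log2 scale with apoE4 (-1.22 to -0.41, paired adjusted p = 0.0278, unpaired 1) and by 0.64 with apoE3 (-1.04 to -0.24, paired adjusted p = 0.0403, unpaired 0.807). Both were lower in 4 of 4 pairs. The apoE4 call was lost without control replicate 1 (0.13), 3 (0.0733) or 4 (0.0877) or without apoE4 replicate 1 (0.103), 3 (0.0769) or 4 (0.113). It was also lost without all libraries of number 1 (0.189) or number 3 (0.12), and with no low-count filter, where the paired fit called 0 of 9 genes in this comparison. The apoE3 call was lost without control replicate 1 (0.155), 3 (0.0811) or 4 (0.0994), apoE2 replicate 2 (0.0502), apoE3 replicate 2 (0.0981) or 4 (0.181), or apoE4 replicate 3 (0.0544), and without all libraries of number 1 (0.12), 2 (0.0746), 3 (0.0749) or 4 (0.0894). With apoE2 it had a log2 fold change of 0.52 (0.12 to 0.92, paired adjusted p = 0.202, higher in 4 of 4 pairs). Between apoE4 and apoE3 the difference was -0.18 (-0.58 to 0.23, adjusted p = 0.688).

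Scaled to neuronal RNA, the order stayed. Per 1000 CPM of the 8 pan-neuronal markers (*Map2*, *Snap25*, *Syt1* and others), *Calb1* had 30.7 to 40.7 CPM with apoE2, 11.4 to 28.8 with apoE3 and 13.8 to 18.6 with apoE4, against 18.8 to 36.8 in the control. Since *Calb1* is also a gene of granule and pyramidal cells, the glutamatergic list is given beside it. Of its 18 genes, the paired fit called 3 lower and 0 higher with apoE4 than with apoE2, where 4.45% of all genes were called, with a median log2 fold change of -0.16 against -0.000835 over all genes. The 3 were *Neurod2* (-0.81, adjusted p = 0.00884), *Fezf2* (-0.51, 0.0214) and *Nrgn* (-0.52, 0.0389), named after their values were seen. With apoE3 against apoE2, 0 of the 18 were called lower and 1 higher (1.37% of all genes were called), while their median log2 fold change was -0.26 against 0.00868 over all genes, with values below 0 in 12 of 18. Their part in the *Calb1* result was not tested.

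*Calb2* was lower with apoE4 than with apoE2 in 4 of 4 pairs. Its CPM was 193, 299, 54.4 and 279 with apoE2 and 142, 221, 40.3 and 92.4 with apoE4, and the groups overlapped. The paired log2 fold change was -0.74 (-1.10 to -0.38, adjusted p = 0.0193), while the unpaired fit gave -0.73 with an adjusted p of 1. The call was lost without apoE4 replicate 3 (0.0598), apoE4 replicate 4 (0.0824) or all libraries of number 3 (0.0747). Control libraries held 155, 334, 60.5 and 190 CPM and apoE3 libraries 164, 229, 51.1 and 123. Against the control, apoE4 gave -0.58 (paired adjusted p = 0.076) and apoE3 -0.33 (0.211), and both passed once apoE2 replicate 4 was left out (0.00295 and 0.0357). DESeq2 with the replicate block called *Calb2* lower with apoE4 than in the control (adjusted p = 0.0199), as the paired edgeR fit did without all libraries of number 4 (0.0251). Among the 7 genes of Cajal-Retzius and mossy cells, a list that includes *Calb2*, 5 were tested. The paired fit called *Calb2* itself and *Calcrl* (-0.81, adjusted p = 0.0155) lower with apoE4 than with apoE2, where 4.45% of all genes were called. Of the 5, 3 had a log2 fold change below 0 and 2 above. *Reln*, also on the list, was not called, with 121, 99.0, 72.1 and 130 CPM with apoE4 and 132, 81.0, 53.8 and 97.3 with apoE2.

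*Pvalb* rose with apoE3 against the control by a log2 fold change of 0.58 (0.26 to 0.91, paired adjusted p = 0.0218, unpaired 0.868), with apoE3 above the control in each of the 4 pairs. The adjusted p without control replicate 1 was 0.107, without apoE3 replicate 1 it was 0.0761 and without apoE3 replicate 4 it was 0.0576, each of which ended the call. It also ended without all libraries of number 1 (0.156), 2 (0.0671) or 3 (0.0671). With apoE2 its paired log2 fold change was 0.45 (adjusted p = 0.167), which became 0.61 (0.0112) without apoE2 replicate 4 and 0.64 (0.0172) without all libraries of number 4. With apoE4 it was 0.23 (adjusted p = 0.476). *Pvalb* was the 1 member of the 9 that the paired fit called higher than in the control.

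The homeodomain factors *Dlx1* and *Lhx6* fell with apoE3 in the paired fit. *Dlx1* had 28.0, 21.1, 17.8 and 25.0 CPM in the control libraries, 22.9, 18.7, 11.4 and 16.6 with apoE2, 21.6, 19.2, 11.1 and 13.7 with apoE3, and 23.9, 22.6, 17.3 and 25.1 with apoE4. The drop with apoE3 was -0.50 on the log2 scale (-0.76 to -0.25, paired adjusted p = 0.0135, unpaired 0.778, lower in 4 of 4 pairs). It was no longer called without control replicate 4 (0.0507) or apoE3 replicate 4 (0.0594), or without all libraries of number 1 (0.0648), 3 (0.105) or 4 (0.0531). With apoE2 *Dlx1* had -0.43 (adjusted p = 0.0833, lower in 4 of 4 pairs), which passed without apoE3 replicate 4 (0.0475). ApoE4 exceeded apoE3 in 4 of 4 pairs, by 0.46 (adjusted p = 0.0635), which passed without apoE3 replicate 2 (0.0335). DESeq2 with the replicate block called *Dlx1* lower with apoE2 than in the control (adjusted p = 0.0163), and higher with apoE4 than with apoE3 (0.0113) and with apoE2 (0.0312).

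*Lhx6* had 18.5, 14, 4.64 and 18.3 CPM in the control libraries and 13.3, 10.0, 3.70 and 14.2 with apoE3. It fell by 0.41 on the log2 scale (-0.65 to -0.18, paired adjusted p = 0.0253, unpaired 0.857). This call was lost without control replicate 1 (0.0708), 2 (0.0554) or 4 (0.0799) or without apoE3 replicate 1 (0.0974), 2 (0.0535) or 3 (0.0528), and without all libraries of number 1 (0.122), 2 (0.083) or 3 (0.0857). *Dlx5* had the fewest counts, with 96, 82, 51 and 81 counts summed over the 4 libraries of control, apoE2, apoE3 and apoE4. Its largest paired log2 fold change was -0.62 with apoE3 against the control (-1.38 to 0.13, adjusted p = 0.272).

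The pattern of *Gad1* across libraries was shared most closely by *Dlx1*. Over the 16 libraries Pearson's r of log2 CPM with *Gad1* was 0.932 for *Dlx1*, 0.927 for *Adarb2*, 0.901 for *Lrrtm3*, 0.897 for *Cntnap4* and 0.894 for *Lgi3*. Once the mean of each replicate number was taken off, the nearest were *Rasd2* (0.961), *Dpf3* (0.954), *Gucy1a3* (0.953), *Dlx1* (0.950) and *Erbb4* (0.949), a receptor of interneurons for neuregulin. For *Gad2* the nearest were *Gm15631*, *Trps1*, *Cecr2*, *Timeless* and *Etl4* (0.850 to 0.872), and with the number means removed *Sst* (0.940), the peptide somatostatin of an interneuron subclass, *Erbb4* (0.901), *Car8* (0.875), *Unc5d* (0.872) and *Gad1* (0.869). For *Slc32a1* they were *Nxph1* (0.898), *Gm5607*, *Lnx1*, *Btbd11* and *Erbb4* (0.879), and with the number means removed *Tigd2*, *Gm45235*, *Nrsn1*, *Kif22* and *Nr4a2* (0.819 to 0.863). These values are descriptions over 16 libraries that share replicate numbers, groups and cell mixtures.

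Other genes of interneurons were read from lists of genes that are not members. Of 30 other genes of interneuron subclasses, 29 were tested. With apoE3 against the control the paired fit called 3 higher and 5 lower, where it called 11.8% of all genes, and the median log2 fold change was -0.13, against 0.02 over all genes. The 5 that fell were *Adarb2* (-1.03, adjusted p = 0.00424), *Vip* (-1.30, 0.00837), *Kcnc2* (-0.71, 0.00106), *Reln* (-0.49, 0.00701) and *Erbb4* (-0.50, 0.0284), and the 3 that rose were *Cck* (0.78, 0.00961), *Cxcl14* (0.82, 0.0178) and *Id2* (0.47, 0.0202). All but *Cck*, *Reln*, *Erbb4* and *Adarb2* of these were named after their values were seen. *Adarb2* was named for its correlation with *Gad1* over these same libraries, and *Erbb4* was also among the genes nearest to *Gad1*. Their falls are therefore not separate from that of *Gad1*. *Vip* is the peptide of cells that inhibit other interneurons, and *Reln* the secreted protein reelin. With apoE4 against apoE3, *Adarb2* (0.83), *Kcnc2* (0.49) and *Reln* (0.54) were higher and *Cck* (-0.76) lower, 3 and 1 of 29 (1.8% of all genes were called). With apoE2 against the control 0 were higher and 1 lower (1.72% of all genes), and with apoE4 against the control 0 were called in the paired fit (3.34%). Against apoE2, *Id2* alone was called with apoE4 (4.45% of all genes) and with apoE3 (1.37%), higher in both (adjusted p = 0.00426 and 0.00176).

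Of 20 other interneuron transcription factors, 17 were tested, and at most 3 were called in a comparison. Of all genes the paired fit called 11.8% for apoE3, 1.72% for apoE2 and 3.34% for apoE4 against the control and 4.45% for apoE4 against apoE2, and the counts of this list are given as values beside these shares. With apoE3 against the control 2 were higher, *Npas3* (0.80, adjusted p = 0.000617) and *Sox6* (0.63, 0.0181), and 1 was lower, *St18* (-0.98, 0.0212). With apoE2 against the control 2 were higher, *Npas1* (0.78, 0.0317) and *Npas3* (0.50, 0.0323), and 1 was lower, *St18* (-1.34, 0.0146). With apoE4 against the control 1 was higher, *Npas3* (0.61, 0.00585), and 0 were lower. With apoE4 against apoE2 2 were higher, *St18* (1.27, 0.0093) and *Nr2f1* (0.34, 0.0295), and 1 was lower, *Npas1* (-0.90, 0.00714). The paired fit called 0 for apoE4 against apoE3 and for apoE3 against apoE2. *Npas1* was named after its values were seen. The long noncoding RNA *Dlx6os1*, transcribed at the *Dlx5* and *Dlx6* locus, fell with apoE3 by 0.38 (adjusted p = 0.0318).

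Most astrocyte markers rose with apoE3, the group in which 4 of the members fell, and some with apoE4, where *Calb1* alone of the members fell. In the paired fit 8 of 9 were higher with apoE3 than in the control (11.8% of all genes were called), 4 with apoE4 (3.34%) and 0 with apoE2 (1.72%). Their summed CPM ranged from 1418 to 3189 in the control, 1316 to 3173 with apoE2, 1707 to 6631 with apoE3 and 1577 to 5404 with apoE4. Over the 8 oligodendrocyte lineage markers 3 were higher with apoE3, with sums of 107 to 438 CPM in the control and 139 to 846 with apoE3. The 8 pan-neuronal markers summed to 3911 to 6040 CPM in the control and to 2985 to 6065 with apoE3, where 1 was called higher and 1 lower. The 18 glutamatergic markers had 2 called higher and 0 lower with apoE3, with sums of 1943 to 3297 CPM in the control and 1576 to 3250 with apoE3. The microglia markers, at 13.5 to 73.0 CPM summed over 7 genes in all libraries, had 0 called in the paired fit of apoE3 against the control, and 1 of 7 tested vascular and fibroblast markers was higher. The paper stained such cultures for GFAP and reported that the share of labeled astrocytes did not vary significantly across treatments. Its measure was a count of cells, while the values here are RNA. The part of these cell markers in the results was not tested.

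Per 1000 CPM of the pan-neuronal markers, *Gad1* remained lower with apoE3 than in the control in 4 of 4 pairs. The values were 74.2, 49.9, 31.7 and 61.4 in the control libraries, 64.2, 35.3, 19.2 and 33.7 with apoE2, 49.8, 37.1, 19.9 and 38.0 with apoE3 and 67.9, 43.0, 31.9 and 82.0 with apoE4. On this scale apoE4 exceeded apoE3 in 4 of 4 pairs, with a median ratio of 1.48. *Dlx1* was below the control in 4 of 4 pairs and *Lhx6* in 3 of 4 with apoE3 on this scale, and *Pvalb* was above it in 4 of 4. *Gad2* with apoE3, below the control in 4 of 4 pairs before the scaling, was below it in 3 of 4 after it (median ratio 0.90). *Slc32a1* with apoE3 was below the control in 2 of 4 (median ratio 1.06). Without all libraries numbered 4, which had the highest astrocyte sums with apoE3 and apoE4, the paired fit called 3 of 9 for apoE3 against the control in place of 5, and the *Calb1* (0.0894) and *Dlx1* (0.0531) calls were lost. Without all libraries numbered 1, 2 or 3 it called 1, 2 and 1 of 9, and *Gad1* was among them each time.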

How the data were processed

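RNA of 16 cultures (4 groups, 4 libraries each, groups and replicate numbers from the sample labels) was sequenced after ribosomal depletion. Alignment by the authors was with STAR to the genome mm10 and counting with HTSeq, and the deposited values are raw counts of 48397 symbols without normalization. The annotation release and the strand setting are not given in the sources used here. Reads that HTSeq put on no single gene (38.4 to 73.7% of a library) did not enter library sizes or tests. The study describes independent cultures, while the labels do not tie libraries to litters, so the p-values measure the spread between these libraries.

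Counts were scaled by TMM and filtered with filterByExpr (minimum count 10, total 15, proportion 0.7), and 17038 genes were tested with edgeR 4.0.16 (R 4.3.3), by robust quasi-likelihood fits with 1 coefficient per group. P-values were adjusted by Benjamini-Hochberg. The study's methods name no block, so the unpaired fit came first. Deviations from group means correlated at 0.362 to 0.552 between libraries numbered 1, 0.766 to 0.831 in number 2, 0.62 to 0.671 in number 3 and 0.681 to 0.79 in number 4. Between different numbers of different groups they correlated at -0.736 to 0.569, a range that covers number 1. The numbers were taken to pair the libraries, as the data and not the labels show, and paired values are given. Every edgeR call of a member rests on this pairing. The common dispersion was 0.132 without and 0.0178 with the block. Log2 CPM used a prior count of 2. Differences between numbers and groups were shared out as sums of squares. The script was tested on simulated data.

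The 9 members and the lists of other genes were chosen with earlier results of these data known. The rule named all members, listed genes past a call rule, up to 6 per list by mean CPM, the 5 genes nearest to *Gad1*, *Gad2* and *Slc32a1*, and *Apoe* and *Lars2*. The list of GABA uptake and breakdown is not reported here. Alternatives were DESeq2 1.42.0 with and without the block, its size factors, other filters, only the 2 groups compared, the replicate block, the test that the methods name, each library left out and, for levels, the longest transcript. Positions and lengths came from GENCODE M21 and promoters from RefSeq (GRCm38.p6), in which 6 of 9 members matched. Intervals are 95% intervals of the fit.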

Additional observations from a re-analysis of the deposited data

Results flagged for a closer look

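In 2 of 36 sets of 4 libraries (1 gene in 1 group) 1 library lay apart from the other 3 by Dixon's criterion for 4 samples, and chance gives about 1 in 20. *Gad1* in apoE4 replicate 3 was low, at 181 CPM against 262 to 278 CPM in the other apoE4 libraries, and number 3 also held the lowest *Gad1* of the control and apoE2 libraries. *Gad2* in apoE3 replicate 1 was high, at 118 CPM against 80.8 to 85.5 CPM, and number 1 held the highest *Gad2* of every group.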

How the results depend on the processing

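In the unpaired fit the count of members at an adjusted p under 0.05 was 0 in all 6 comparisons with DESeq2 size factors, no low-count filter, a minimum of 1 CPM in 8 libraries, only the 2 groups compared, and in each of the 16 fits with 1 library left out. With the replicate block the counts became 5 for apoE3 and 1 for apoE4 against the control, 1 for apoE4 against apoE3, 2 for apoE4 against apoE2, 1 for apoE3 against apoE2 and 4 for any of the 4 groups, and the block left the count of 0 for apoE2 against the control. DESeq2 gave 1 for apoE4 against apoE2 (0.957% of all genes with an adjusted p). DESeq2 with the replicate block gave 2, 6 and 2 for apoE2, apoE3 and apoE4 against the control (4.61, 15.8 and 6.12% of all genes), 3 for apoE4 against apoE3 (4.67%), 4 for apoE4 against apoE2 (8.07%), 1 for apoE3 against apoE2 (4.72%) and 7 for any of the 4 groups (19.3%). Alternatives of the paired fit were chosen after seeing the data. Without the low-count filter the paired counts were 3 for apoE2 and 0 for apoE4 against the control and 3 for apoE4 against apoE3. The shares of all genes called without that filter are not given here, so these counts are not read as results about the members. Without both libraries that stood apart in reads on no single gene, they were 1 for apoE2 (5.13% of all genes) and 2 for apoE4 (5.5%) against the control. With 1 library, or all 4 of a replicate number, left out, the paired counts ranged from 1 to 6 for any of the 4 groups, 0 to 2 for apoE2, 1 to 6 for apoE3 and 0 to 2 for apoE4 against the control, 0 to 2 for apoE4 against apoE3, 1 to 3 for apoE4 against apoE2 and 0 to 1 for apoE3 against apoE2. The count at 2-fold and p for apoE3 against apoE2 ranged from 0 to 1 with 1 library left out. Of 54 member log2 fold changes, 0 changed sign under the alternatives to the unpaired fit that left out no library of the groups compared. In the unpaired fits with 1 library left out, 26 changed sign at least 1 time, and none of the 26 was called in the unpaired fit. In these fits, *Slc32a1* ranged -0.28 to 0.048 (apoE2 against control), -0.28 to 0.13 (apoE3 against control), -0.15 to 0.15 (apoE4 against control), -0.12 to 0.30 (apoE4 against apoE3), -0.040 to 0.27 (apoE4 against apoE2) and -0.17 to 0.25 (apoE3 against apoE2). *Calb2* ranged -0.14 to 0.61 (apoE2 against control), -0.71 to 0.071 (apoE3 against control) and -0.63 to 0.14 (apoE4 against apoE3). *Lhx6* ranged -0.47 to 0.11 (apoE2 against control), -0.40 to 0.16 (apoE4 against control), -0.23 to 0.36 (apoE4 against apoE2) and -0.55 to 0.039 (apoE3 against apoE2). *Gad1* ranged -0.19 to 0.052 (apoE4 against control) and -0.40 to 0.025 (apoE3 against apoE2). *Gad2* ranged -0.052 to 0.15 (apoE4 against control) and -0.27 to 0.075 (apoE3 against apoE2). *Pvalb* ranged -0.38 to 1.08 (apoE4 against control), -0.95 to 0.24 (apoE4 against apoE3), -0.75 to 0.26 (apoE4 against apoE2) and -0.30 to 0.52 (apoE3 against apoE2). *Dlx1* ranged -0.16 to 0.055 (apoE4 against control) and -0.24 to 0.077 (apoE3 against apoE2). *Dlx5* ranged -0.42 to 0.027 (apoE4 against control) and -0.024 to 0.43 (apoE4 against apoE2). *Calb1* ranged -0.47 to 0.039 (apoE4 against apoE3). Paired fits with libraries left out changed signs as well. Without both libraries that stood apart, paired values turned to -0.10 for *Calb2* (apoE2 against control), -0.027 for *Pvalb* (apoE3 against apoE2) and -0.098 for *Dlx5* (apoE4 against apoE2). With 1 library left out, *Slc32a1* ranged -0.20 to 0.036 in the paired fit (apoE2 against control). Longest transcripts in place of merged exons moved 3 of the 9 levels per kilobase in the control libraries by more than 1 SD, *Gad1* to 71.9, *Dlx1* to 5.59 and *Dlx5* to 0.76, with the order of the 9 genes unchanged. The cause of these changes was not tested. *Dlx5* had 8 to 34 counts per library.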

Other observations

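Of the listed genes that are not members, a few met the criterion of a 2-fold change at an unadjusted p under 0.05 and have not been described. *Top2a*, a topoisomerase of dividing cells, had mean CPM of 4.16 ± 2.43 in the control, 14.7 ± 5.24 with apoE2, 23.5 ± 9.12 with apoE3 and 6.64 ± 2.65 with apoE4 (SD, n = 4). In the paired fit it was higher than the control with apoE2 (log2 fold change 1.84, edgeR adjusted p = 0.0139) and apoE3 (2.58, 0.000538), each in 4 of 4 pairs with no overlap of the groups. Of the 6 genes of the cell cycle list, the paired fit called this 1 in each of those comparisons, where 1.72% and 11.8% of all genes were called, and *Mki67* was not called. With apoE4 against apoE3 the paired fit called 1 of the 6 lower (1.8% of all genes were called). *Drd2*, the dopamine receptor listed for mossy cells, had 0.40 ± 0.19 CPM in the control and 2.71 ± 0.60 with apoE3 (log2 fold change 2.81, paired adjusted p = 0.00186). *Cort*, the peptide cortistatin of an interneuron subclass, had 5.24 ± 3.88 CPM in the control and 1.80 ± 1.17 with apoE3 (paired adjusted p = 0.0671), and *Tac2*, another neuropeptide gene, had 0.73 ± 0.30 and 2.65 ± 2.61 (0.0574). *Pdgfra*, a gene of oligodendrocyte precursors, stood at 1.73 CPM with apoE3 and 0.58 with apoE2 (paired adjusted p = 0.0854).

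*Npy*, the neuropeptide of several interneuron classes, had 35.7 ± 16.9 CPM in the control, 63.8 ± 27.3 with apoE2, 57.8 ± 13.9 with apoE3 and 47.7 ± 13.0 with apoE4, with paired adjusted p of 0.111, 0.0722 and 0.359 against the control. *Sst* was lower with apoE3 than in the control in 4 of 4 pairs (log2 fold change -0.40, paired adjusted p = 0.154). The mouse gene *Apoe* had 339 to 2293 CPM over the 16 libraries.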
